A study of Mus musculus with 6 samples.

Results

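The genes described here are those with symbols of cytosolic ribosomal proteins. They were taken by their symbols, as every listed symbol made of *Rpl* or *Rps* and a number, with the suffixes a, l or x and a last digit where present, together with *Rplp0*, *Rplp1*, *Rplp2* and *Rpsa*. This gave 85 of 20327 symbols, of which 52 belong to the large and 33 to the small ribosomal subunit. Symbols of ribosomal S6 kinases, and pseudogene symbols that end in ps and a number, did not match. Of the 85 members, 2 are nevertheless annotated as processed pseudogenes, *Rpl32l* and *Rps4l*.

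The large subunit forms the peptide bond and holds the tunnel through which the new protein leaves, whereas the small subunit binds the mRNA and reads its codons. mRNAs of ribosomal proteins are abundant and short, and most begin with a terminal oligopyrimidine (TOP) tract, through which the kinase complex mTORC1 adjusts their translation. Fibroblasts of the inflamed colon secrete matrix proteins and cytokines, all of which are made on these ribosomes.

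The libraries hold RNA of colon cells lacking Ter119, CD45, CD31 and EpCAM, which were sorted by EGFP into IL-11+ (EGFP+) and IL-11- (EGFP-) fibroblasts, with n = 3 libraries for each. Both groups came from *Il11-Egfp* reporter mice on the C57BL/6 strain, aged 9 to 15 weeks, given drinking water with 1.5% dextran sulfate sodium (DSS) for 5 days, and cells were sorted on day 7. EGFP is driven by *Il11* sequence on a bacterial artificial chromosome, so that EGFP- cells are those in which this transgene was not detected, and no library from untreated mice was part of the comparison. The method, 5′Tag-seq, reads tags from the 5′ side of polyA transcripts and counts them.

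The libraries of IL-11- fibroblasts held 1057170, 1078179 and 1169817 tags in replicates 1, 2 and 3, and those of IL-11+ fibroblasts held 1046538, 1022851 and 1049048 tags. *Il11* itself had 28, 51 and 89 tags in the IL-11- libraries and 1357, 732 and 2658 tags in the IL-11+ libraries, so each library carried *Il11* on the side of its label. Below, values of the 3 libraries of a group are given in the order of replicates 1, 2 and 3, and normalized CPM are tag counts on the TMM-scaled library size.

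The fibroblast label was checked against 10 marker genes, all of which passed the filter on low genes. *Pdgfra*, a receptor used to mark fibroblasts, had 742, 661 and 663 tags in the IL-11- libraries, against 768, 688 and 705 tags in the IL-11+ libraries. *Dcn*, which encodes the matrix proteoglycan decorin and was the most abundant marker, had 14029, 11620 and 14508 tags in the IL-11- libraries, against 24693, 16830 and 15091 tags in the IL-11+ libraries. In normalized CPM the groups overlapped for *Pdgfra* and were apart for *Dcn*. All 10 markers had tags in each library. By the quasi-likelihood test of edgeR with Benjamini-Hochberg adjustment (adjusted p under 0.05), 4 of the 10 were higher in IL-11+ fibroblasts, *Pdpn*, *Col3a1*, *Thy1* and *Dcn*, and *Lum* was lower. The same test called 6.84% of all tested genes higher and 8.7% lower. Without 1 library, *Dcn* kept its call only when IL-11+ replicate 3 was left out (adjusted p of 0.014 to 0.26 over the 6 fits, the same edgeR test), and *Lum* only without IL-11- replicate 1 or IL-11+ replicate 3 (0.018 to 0.19). *Dcn* was also lost with iterative TMM, with 10 tags required in all libraries and without ribosomal RNA and mitochondrial genes, and *Lum* with the GC and length offset. *Thy1* lost its call without IL-11- replicate 1 or 2 (0.052 and 0.077). In the fit with the replicate block, *Col1a2* was called higher as well, and it is named after its values were seen.

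Genes of the large subunit took a similar part of both transcriptomes. Tags of large-subunit members made up 3.61%, 3.43% and 3.20% of all tags in IL-11- fibroblasts and 3.37%, 3.19% and 3.31% in IL-11+ fibroblasts. The ranges overlapped, and the ratio of the group means, IL-11+ over IL-11-, was 0.965. On TMM-scaled totals this ratio was 1.02, so that its side of 1 depended on the scaling, and within same-numbered libraries it was 1.03, 0.952 and 1.08. A 95% Wilson interval around such a share was at most 0.0711 percentage points wide, which covers counting error only and was narrower than the spread between libraries.

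Small-subunit members made up 3.06%, 2.94% and 2.65% of all tags in IL-11- fibroblasts and 2.62%, 2.48% and 2.53% in IL-11+ fibroblasts. Each IL-11+ library lay below each IL-11- library, by a small distance between IL-11- replicate 3 and IL-11+ replicate 1, and the ratio of the means was 0.883. On TMM-scaled totals the ratio was 0.931 and the groups overlapped, while the ratios within same-numbered libraries were 0.942, 0.865 and 0.995. In such bulk samples, fewer cells of a type and less RNA per cell cannot be told apart.

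Within each library, the tags of both subunits can be set against each other without any scaling between libraries. Large-subunit members held 54.2%, 53.9% and 54.7% of the tags of both subunits in IL-11- fibroblasts, and 56.3%, 56.2% and 56.7% in IL-11+ fibroblasts. The groups did not overlap, and the mean ratio of large-subunit to small-subunit tags was 1.09 times higher in IL-11+ fibroblasts. This ratio was chosen after its values were seen. An exact two-sided permutation test of 3 libraries against 3 cannot give a p below 0.1. Without *Rpl28*, the member with the highest fold change, the ratio was 1.16, 1.15 and 1.19 against 1.24, 1.24 and 1.27, and the groups still did not overlap. Without all members called below, the IL-11+ mean was 1.05 times the IL-11- mean, with no overlap.

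**Figure D1:**
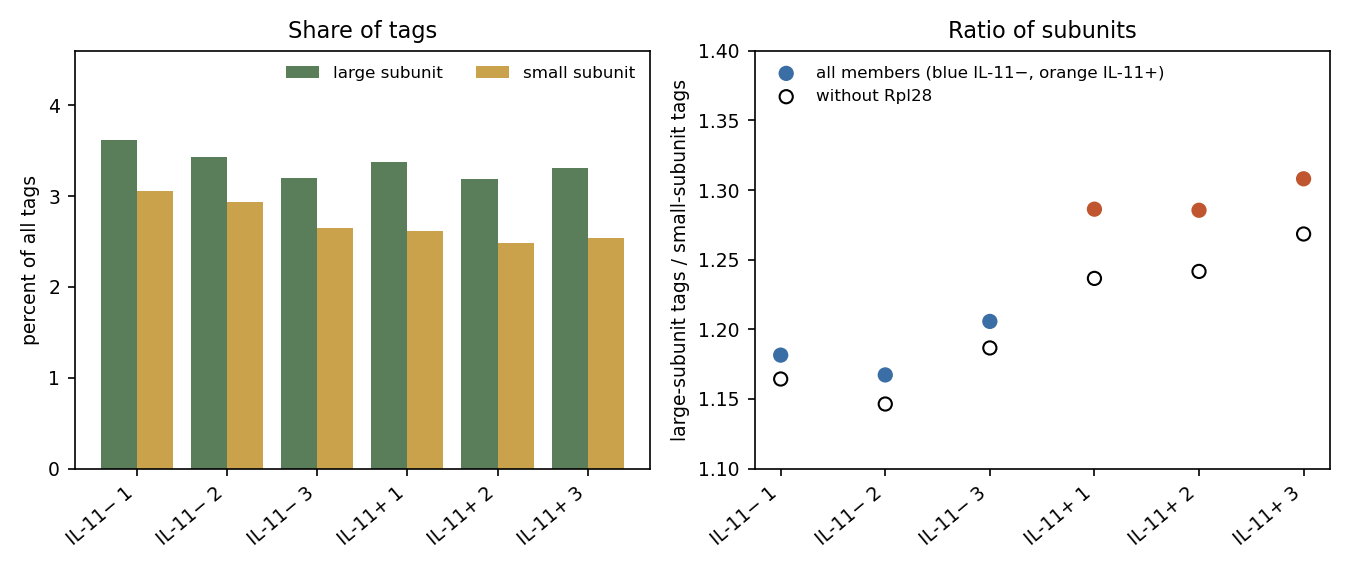
Left, percent of all tags in large-subunit and small-subunit members in each library (bars). Right, large-subunit tags divided by small-subunit tags in each library (filled points: all members, open points: without *Rpl28*; the axis does not start at 0), where the IL-11+ libraries lie at 1.29 to 1.31 and the IL-11- libraries at 1.17 to 1.21.

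To ask which single ribosomal protein genes differed, every gene reaching 10 tags in 3 or more of the 6 libraries was tested in the same fit. Of the 85 members, 82 passed this filter, 50 of the large and 32 of the small subunit, among 9334 tested genes. In the large subunit, 3 of 50 members had an adjusted p under 0.05 and were higher in IL-11+ fibroblasts, *Rpl28*, *Rpl38* and *Rpl23*, while 6.84% of all tested genes were called in this direction. In the small subunit, 1 of 32 members was lower, against 8.7% of all tested genes called lower. Without IL-11- replicate 2 or 3 or IL-11+ replicate 1 or 3, the large-subunit count was 1, and without IL-11- replicate 1 or 2 or IL-11+ replicate 2 or 3 the small-subunit count was 0. *Rpl28* was the only member that also passed a fold change over 2, a rule that called 3.44% of all tested genes higher and 6.37% lower. The shares of members and of all tested genes were not compared by a test.

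By the quasi-likelihood test of edgeR, 0 large-subunit members were lower and 0 small-subunit members were higher at an adjusted p under 0.05. At an unadjusted p under 0.05, 6 large-subunit members were higher and 2 lower, and 2 small-subunit members were higher and 2 lower, next to 12.2% and 14.5% of all tested genes. At an adjusted p under 0.05, DESeq2 called 3 large-subunit members higher and 0 lower, and 0 small-subunit members higher and 1 lower. Counting both directions, DESeq2 called 1083 of the 9334 tested genes. With the replicate number as a block in the fit, 6 large-subunit members were higher and 1 was lower, and 2 small-subunit members were higher and 1 was lower. The same fit called 9.33% of all tested genes higher and 11.2% lower. With a fold change over 2 as well, the block fit called 1 large-subunit member higher, *Rpl28*, and 0 members lower, as DESeq2 did, next to 3.61% and 6.94% of all tested genes.

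The members kept close together. The median log2 fold change, IL-11+ over IL-11-, was −0.00 for the 50 large-subunit members and −0.09 for the 32 small-subunit members, next to −0.01 for all tested genes. The log2 fold changes ran from −0.41 (*Rpl32l*) to 1.13 in the large subunit, up to 0.51 in the small subunit, and from −7.36 to 7.73 over all tested genes. A log2 fold change within 0.25 of 0 was found for 72.0% of the large-subunit and 78.1% of the small-subunit members, and for 40.4% of all tested genes. The standard error of a member had a median of 0.17, against 0.28 for all tested genes. For 79 of the 82 tested members, the approximate 95% interval of the fold change stayed within 2-fold in both directions. The sign was divided evenly in the large subunit, with 25 members above and 25 below 0, and 22 of the 32 small-subunit members lay below 0.

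The libraries of the groups did not overlap in normalized CPM for 8 large-subunit members on the higher and 5 on the lower side in IL-11+ fibroblasts, and for 2 and 7 small-subunit members. Over all tested genes, 14.5% were apart on the higher and 16.7% on the lower side. Within all 3 pairs of same-numbered libraries, 13 large-subunit members were higher and 11 lower, and 2 small-subunit members were higher and 18 lower, next to 23.5% and 25.3% of all tested genes.

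**Figure D2:**
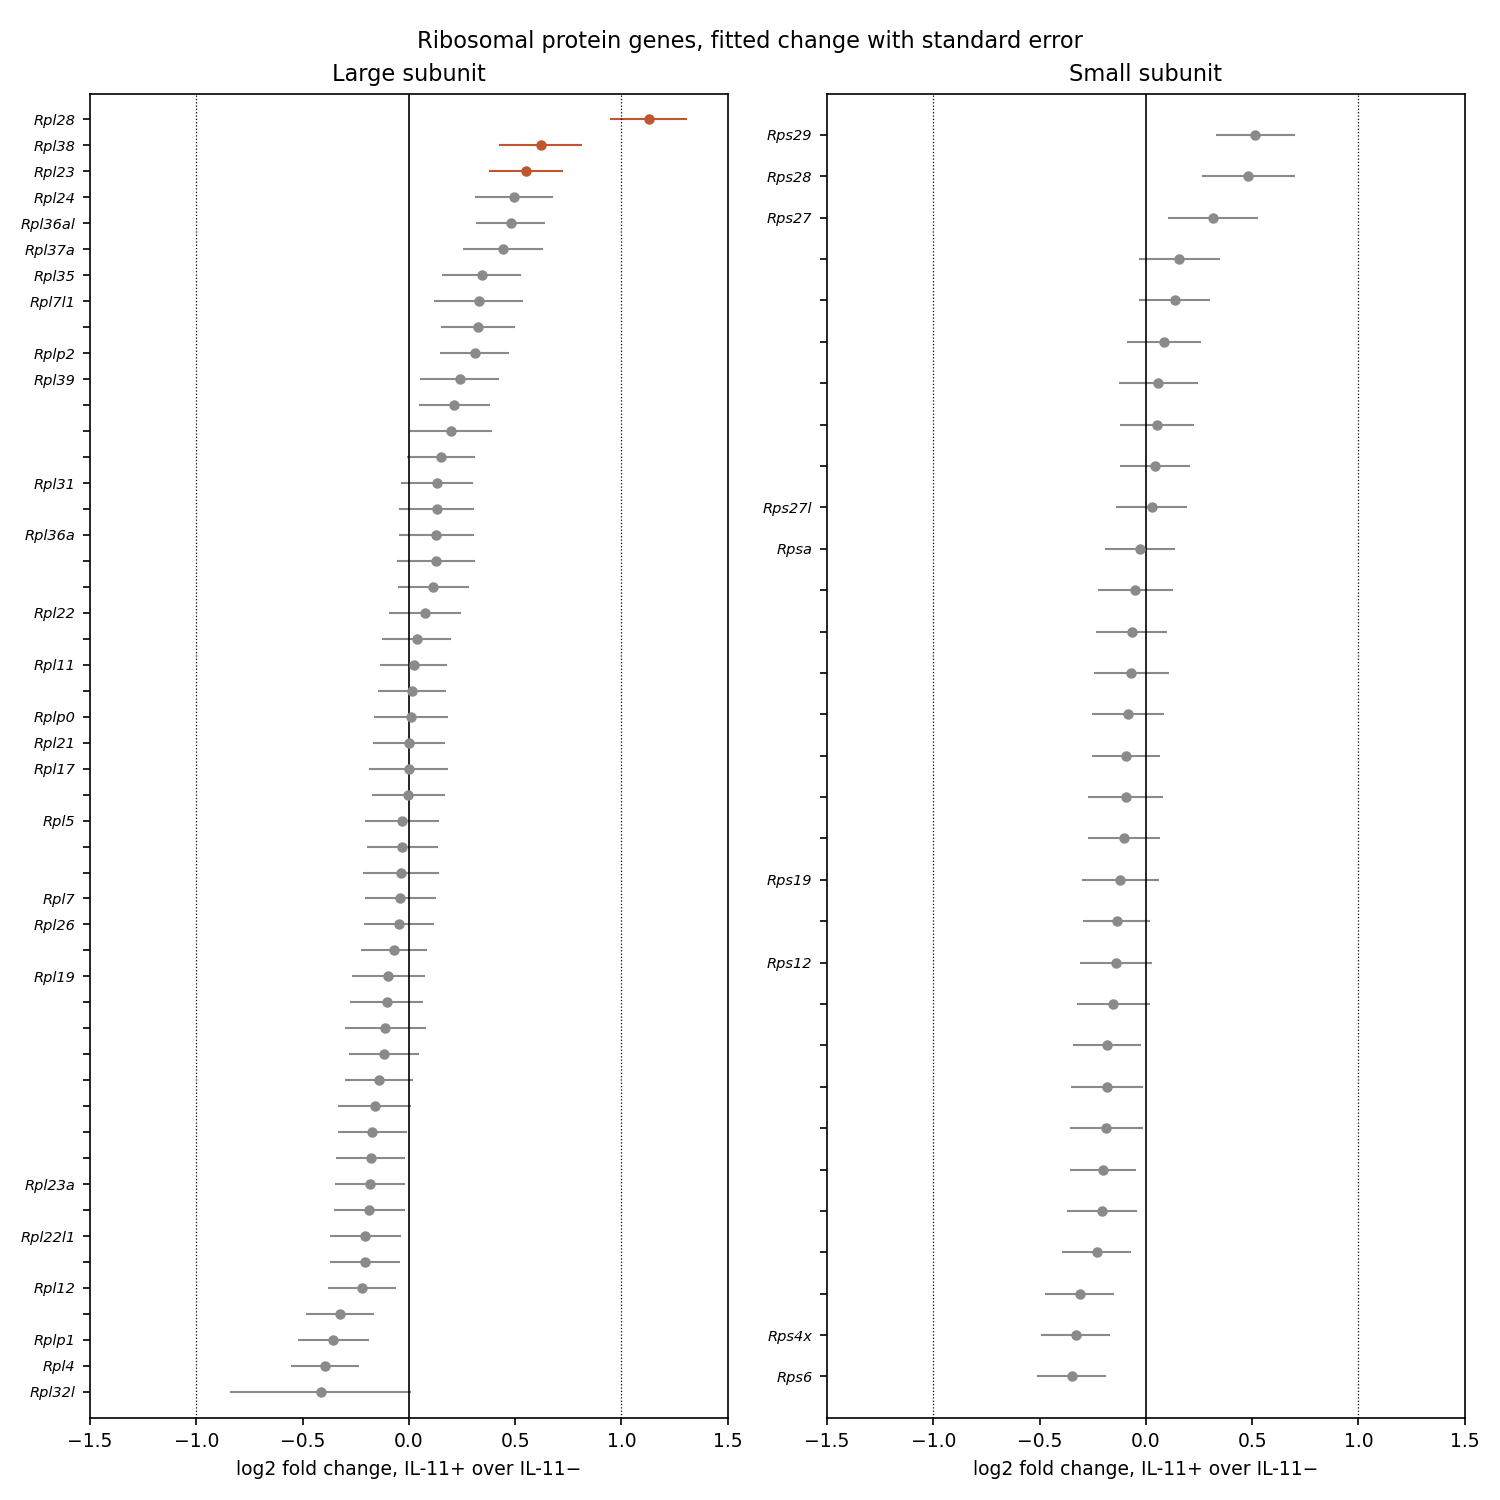
Log2 fold change of tested members, IL-11+ over IL-11- fibroblasts (points), with its standard error (bars), for the large subunit (left) and the small subunit (right), with the names of members described in the text. Orange marks an adjusted p under 0.05 and dotted lines a fold change of 2, which *Rpl28* at 1.13 passed.

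*Rpl28* encodes eL28, a protein on the surface of the large subunit that is found in eukaryotes and not in bacteria. It had 554, 661 and 591 tags in the IL-11- libraries, against 1363, 1115 and 1053 tags in the IL-11+ libraries. Each IL-11+ library lay above each IL-11- library, at 546 ± 70.2 against 1194 ± 227 normalized CPM (mean ± SD, n = 3 each). The log2 fold change was 1.13 ± 0.18 (SE), with an adjusted p of 2.1e-04 by the quasi-likelihood test of edgeR with Benjamini-Hochberg adjustment. IL-11+ replicate 1 was the highest library, and without it the log2 fold change was 0.98, which is under the 2-fold threshold, with an adjusted p of 9.9e-04 in the same test. The adjusted p ranged from 6.1e-09 to 0.0027 over 18 alternative settings, among which *Rpl28* passed 0.05 in all 18.

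The gene lies at chr7:4792874-4795066 on the plus strand (GRCm38, GENCODE). Of the 50-nt windows in the first 300 nt of its annotated transcript, 47.0% also occur in *Gm10051*, so that some of their tags can be shared. *Gm10051* had 265, 236 and 286 tags in the IL-11- libraries, against 455, 420 and 431 tags in the IL-11+ libraries, again without overlap, with a log2 fold change of 0.89 ± 0.16 (adjusted p = 6.3e-04, edgeR quasi-likelihood test, Benjamini-Hochberg adjustment). How tags that match several genes were counted is not given in the sources used here, and the share of *Rpl28* tags that came from *Gm10051* or the reverse was not tested. *Gm10051* was chosen after its values were seen.

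*Il11* lies on the chromosome of *Rpl28*, at chr7:4772373-4782859 on the minus strand, 10015 bases away. The other genes in the count tables within 50000 bases of *Il11* were looked up after the values of *Rpl28* were seen. *Cox6b2* had 23, 20 and 27 tags in the IL-11- libraries, against 100, 100 and 74 tags in the IL-11+ libraries. *Tmem190* and *Tmem238* both lie between *Il11* and *Rpl28*. *Tmem190* had 0, 0 and 1 against 22, 16 and 8 tags, and *Tmem238* had 0, 1 and 1 against 6, 12 and 8 tags. *Fam71e2* had 0, 0 and 0 against 3, 1 and 7 tags, and *Tmem150b* had 4, 1 and 3 against 6, 9 and 21 tags. These 5 genes did not overlap between the groups, on the higher side in IL-11+ fibroblasts, where 14.5% of all tested genes were apart. Only *Cox6b2* of them passed the filter, and the others had too few tags for the test. The log2 fold change of *Cox6b2* was 2.13 (adjusted p = 3.2e-06, edgeR quasi-likelihood test, Benjamini-Hochberg adjustment). *Ube2s*, which overlaps *Rpl28* on the other strand, had 125, 164 and 144 against 158, 171 and 184 tags (log2 fold change 0.40), without overlap in normalized CPM and not called. *Kmt5c* had 9, 4 and 10 against 10, 10 and 9 tags, with overlap. Whether *Rpl28* lies on the artificial chromosome of the reporter, and the part of its position beside *Il11* in its values, was not tested.

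*Rpl38*, at chr11:114668524-114672331 on the plus strand, encodes eL38, known from mouse mutants with altered translation of *Hox* mRNAs. It had 265, 231 and 184 tags in the IL-11- libraries, against 346, 262 and 338 tags in the IL-11+ libraries. In normalized CPM, 207 ± 51.8 against 318 ± 50.5 (mean ± SD, n = 3 each), the groups did not overlap, but IL-11+ replicate 2 was close to IL-11- replicate 1. The log2 fold change was 0.62 ± 0.20 (SE, adjusted p = 0.037, edgeR quasi-likelihood test, Benjamini-Hochberg adjustment). The call was lost when IL-11- replicate 2 or 3 or IL-11+ replicate 1 or 3 was left out, at adjusted p of 0.11, 0.18, 0.13 and 0.063 in the same test of edgeR. Scaling by library size alone and an offset for GC content and transcript length also ended it. With the replicate block, the adjusted p in this test was 0.0014.

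*Rpl23*, at chr11:97777527-97782437 on the minus strand, encodes uL14, a protein at the interface of the subunits that also binds the p53 regulator MDM2 when free of the ribosome. It had 592, 602 and 493 tags in the IL-11- libraries, against 754, 675 and 804 tags in the IL-11+ libraries. The groups did not overlap, at 512 ± 93.2 against 750 ± 58.6 normalized CPM (mean ± SD, n = 3 each), and IL-11- replicate 3 was the lowest library. The log2 fold change was 0.55 ± 0.17 (SE, adjusted p = 0.038, edgeR quasi-likelihood test, Benjamini-Hochberg adjustment). Leaving out any of the 6 libraries gave an adjusted p above the threshold, from 0.060 to 0.17, with log2 fold changes of 0.39 to 0.62 (the same edgeR test). *Gm9794*, which carries 67.7% of the 5′ windows of *Rpl23*, had 461, 410 and 391 tags against 397, 362 and 479 tags, and its groups overlapped. Its log2 fold change was 0.12 ± 0.17 (SE), and it was chosen after its values were seen.

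**Figure D3:**
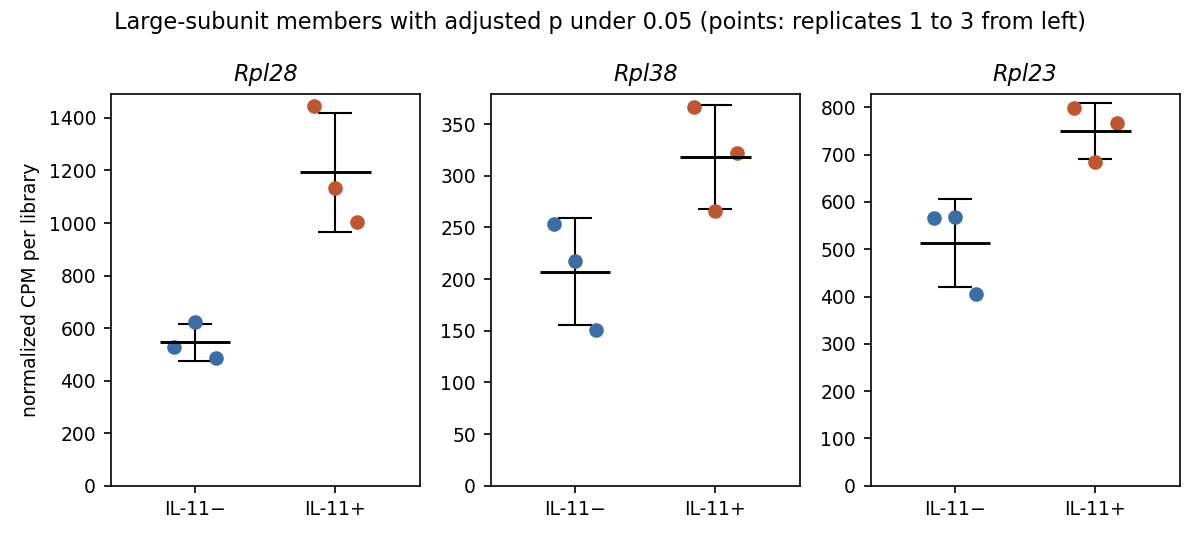
Normalized CPM of *Rpl28*, *Rpl38* and *Rpl23* in each library (points, replicates 1 to 3 from left) with the group mean and SD (lines, n = 3 each). The groups do not overlap in any of the 3 genes, and the mean of *Rpl28* is 546 in IL-11- fibroblasts, and 1194 in IL-11+ fibroblasts.

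A further group of members passed the threshold with the replicate block but not without it, and is named after its values were seen. *Rpl24*, whose product bridges the subunits, had 284, 265 and 255 tags in the IL-11- libraries, against 394, 267 and 355 tags in the IL-11+ libraries. *Rpl37a*, which encodes a zinc-binding protein of the large subunit, had 665, 611 and 462 against 671, 721 and 752 tags. *Rpl36al*, a second gene for the protein eL42 beside *Rpl36a*, had 199, 199 and 185 against 222, 250 and 260 tags. In normalized CPM the groups were apart for *Rpl37a* and *Rpl36al*, while for *Rpl24* IL-11+ replicate 2 lay at the level of the IL-11- libraries. By the quasi-likelihood test of edgeR with Benjamini-Hochberg adjustment, the adjusted p was 0.081, 0.13 and 0.054 for *Rpl24*, *Rpl37a* and *Rpl36al*, and 0.014, 0.013 and 0.015 with the block. With the block and the GC and length offset together, *Rpl24* kept its call, and *Rpl37a* and *Rpl36al* lost it (0.031, 0.071 and 0.056, the same edgeR test). Without the block, *Rpl24* also passed when every gene with at least 1 tag was kept and when IL-11+ replicate 2 was left out, and *Rpl36al* with RLE scaling.

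In the small subunit, the block added *Rps28* and *Rps29*, which encode short proteins near the mRNA exit and the head of the subunit. *Rps28* had 376, 401 and 223 tags in the IL-11- libraries, against 430, 379 and 464 tags in the IL-11+ libraries. *Rps29* had 335, 385 and 263 against 390, 414 and 469 tags. For both genes IL-11- replicate 3 was the lowest library, and without it the log2 fold change fell from 0.48 to 0.20 for *Rps28* and from 0.51 to 0.30 for *Rps29*. The adjusted p by the quasi-likelihood test of edgeR with Benjamini-Hochberg adjustment was 0.16 and 0.072, and 0.012 and 0.0064 with the block. With the GC and length offset added to the block it was 0.070 and 0.048, and without the block both genes passed when every gene with at least 1 tag was kept. *Rpl4*, which encodes uL4 with a loop in the peptide tunnel, was the member lower with the block, with 1159, 1237 and 1327 tags against 873, 812 and 844 tags and no overlap. Its log2 fold change was −0.40 ± 0.16 (SE), and the adjusted p in the same edgeR test was 0.11, or 0.027 with the block and 0.034 when only library size was scaled.

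The most abundant members did not pass the test. *Rpl7*, with the highest mean normalized CPM of all members, had 2104, 2087 and 2432 tags in the IL-11- libraries, against 2112, 1838 and 1791 tags in the IL-11+ libraries (log2 fold change −0.04 ± 0.17, SE). *Rpl19*, which encodes a protein that reaches from the tunnel exit to the small subunit, had 1428, 1392 and 1526 against 1388, 1116 and 1119 tags (−0.10 ± 0.17). In both genes the groups overlapped in normalized CPM. *Rps4x* had 1929, 1946 and 2247 against 1432, 1322 and 1603 tags, without overlap in normalized CPM. Its log2 fold change of −0.33 ± 0.16 (SE) had an unadjusted p of 0.055 by the quasi-likelihood test of edgeR and an adjusted p of 0.20 with Benjamini-Hochberg adjustment. *Rps12*, with 1976, 1887 and 1853 against 1666, 1508 and 1478 tags, and *Rps19*, with 1989, 1847 and 1678 against 1730, 1436 and 1391 tags, overlapped between the groups in normalized CPM. Per kilobase of annotated transcript, a scale that 5′ tags need not follow and that is too low for members whose chosen transcript is long, *Rps12* stood at 2960 normalized CPM per kb in IL-11- fibroblasts, and 2686 in IL-11+ fibroblasts, and *Rps19* at 2642 and 2432. The log2 fold change nearest to 0 in the large subunit was that of *Rpl21* (0.00 ± 0.17), with overlap and 974, 864 and 861 against 843, 818 and 763 tags.

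The P-stalk of the large subunit, which recruits elongation factors, is built from *Rplp0*, *Rplp1* and *Rplp2* on a base with *Rpl12*. None of these 4 members had an adjusted p under 0.05 by the quasi-likelihood test of edgeR with Benjamini-Hochberg adjustment. Among all tested genes 6.84% were called higher and 8.7% lower, and 4 genes are too few to set against these shares. With the block and the GC and length offset together, *Rplp1* was called lower (adjusted p = 0.012, the same edgeR test). *Rplp0* had 1966, 2039 and 2298 tags in the IL-11- libraries, against 2168, 1804 and 1677 tags in the IL-11+ libraries (log2 fold change 0.01 ± 0.18, SE). *Rplp1* had 1351, 1232 and 1401 against 748, 989 and 1068 tags (−0.35 ± 0.17), and *Rplp2*, whose product pairs with that of *Rplp1*, had 461, 446 and 424 against 485, 488 and 511 tags (0.31 ± 0.16). The libraries of both genes did not overlap between groups in normalized CPM, on opposite sides. The ratio of *Rplp1* to *Rplp2* tags was 2.93, 2.76 and 3.30 in IL-11- fibroblasts, and 1.54, 2.03 and 2.09 in IL-11+ fibroblasts. This ratio too was free of overlap, and it was chosen after its values were seen. *Rpl12* had 620, 603 and 693 against 532, 443 and 494 tags (−0.22 ± 0.16), and its groups came close without overlap in normalized CPM.

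*Rpl5* and *Rpl11* join the 5S ribosomal RNA in a particle that can also hold back MDM2. *Rpl5* had 1348, 1157 and 1466 tags in the IL-11- libraries, against 1334, 1013 and 1116 tags in the IL-11+ libraries (log2 fold change −0.03 ± 0.17, SE). *Rpl11* had 656, 605 and 641 against 533, 589 and 615 tags (0.02 ± 0.16). The groups overlapped in normalized CPM for both genes. Of 7 members around the exit of the peptide tunnel, *Rpl17*, *Rpl19*, *Rpl23a*, *Rpl26*, *Rpl31*, *Rpl35* and *Rpl39*, 0 were called by the quasi-likelihood test of edgeR, 0 at an unadjusted p under 0.05, and their median log2 fold change was −0.00. Of all tested genes, 6.84% were called higher and 8.7% lower, and 12.2% and 14.5% were so at an unadjusted p under 0.05, and 7 genes are too few to set against these shares. *Rpsa*, which encodes a small-subunit protein near the mRNA exit and also binds laminin, had 1488, 1540 and 1729 against 1488, 1344 and 1325 tags (−0.03 ± 0.16), with overlap in normalized CPM.

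*Rps6* encodes the substrate of the S6 kinases downstream of mTORC1. It had 590, 592 and 704 tags in the IL-11- libraries, against 467, 444 and 407 tags in the IL-11+ libraries. The groups did not overlap, and the log2 fold change of −0.35 ± 0.16 (SE) had an adjusted p of 0.17 by the quasi-likelihood test of edgeR with Benjamini-Hochberg adjustment, or 0.064 with the block.

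Some members are second copies (paralogs) of another ribosomal protein gene. The 3 members under the filter were *Rpl39l* and *Rpl3l*, known for use in testis and in muscle, and *Rps4l*, annotated as a transcribed processed pseudogene. *Rpl39l* had 1 tag, in IL-11- replicate 3, and 0 in the other libraries, where 0 tags allow up to 2.78 to 2.93 CPM (3 tags). *Rpl3l* had 5, 6 and 4 tags in the IL-11- libraries, against 2, 0 and 1 tags in the IL-11+ libraries, and *Rps4l* had 3, 15 and 7 against 8, 1 and 10 tags. These counts are too low for a fold change. *Rpl22l1*, the copy of *Rpl22*, had 370, 466 and 437 against 286, 362 and 344 tags (log2 fold change −0.20 ± 0.17, SE). *Rpl7l1*, a copy of *Rpl7* with a role in ribosome assembly, had 52, 64 and 106 against 75, 88 and 84 tags (0.33 ± 0.21). *Rps27l* had the log2 fold change nearest to 0 in the small subunit (0.03 ± 0.17), with 229, 248 and 246 against 175, 243 and 245 tags. The groups overlapped in normalized CPM for *Rpl22l1*, *Rpl7l1* and *Rps27l*. *Rpl32l*, a processed pseudogene by its annotation that is named after its values were seen, was the least abundant tested member, with 21, 17 and 11 against 11, 16 and 6 tags and overlap.

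Within libraries, the tags of *Rpl36al* were 0.536, 0.582 and 0.621 times those of *Rpl36a* in IL-11- fibroblasts, and 0.689, 0.856 and 0.674 times in IL-11+ fibroblasts, without overlap. For *Rpl22l1* over *Rpl22* the ratios were 0.436, 0.550 and 0.578 against 0.380, 0.534 and 0.380, and for *Rps27l* over *Rps27* they were 0.371, 0.365 and 0.582 against 0.286, 0.462 and 0.300. The groups overlapped in both of these pairs.

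Members also differed in features that the choice of symbols did not use. Their annotated transcripts had a median length of 795 nt, against 3065 nt for all tested genes with an annotated transcript. A long transcript chosen for a member can place it too high in this order. The 27 shortest members, of 345 to 614 nt, had a median log2 fold change of 0.03 with 14 above 0. The middle 28 members had a median of −0.10 with 9 above 0, and the 27 longest, from 977 nt on, had a median of −0.03 with 12 above 0. Of the 3 members called higher, 1 was among the shortest and 2 among the longest, and of the 8 called higher with the block, 5, 1 and 2 were among the shortest, middle and longest. In summed normalized CPM the shortest members stood at 15971, 15490 and 12114 in IL-11- fibroblasts, and 15162, 14370 and 15147 in IL-11+ fibroblasts. The groups overlapped, and IL-11- replicate 3 stood below the other 5 libraries. Members share the same libraries and are not independent replicates. Across them, Pearson's r between log2 length and log2 fold change was −0.02 in the large subunit (n = 50) and −0.30 in the small subunit (n = 32), or −0.08 and −0.45 without the 2 farthest members. Against the log2 mean level, r was −0.06 and −0.46, and Spearman's rho was −0.24 and −0.36. Over all tested genes with an annotated transcript (n = 9041), r was −0.07 against length. Against mean level it was 0.18, with a rho of 0.19. The cause of these relations was not tested.

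Positions upstream of the counted transcripts were taken from RefSeq (GRCm38.p6), in which 64 of the 85 members matched with 76 promoter entries. In the 100 bases centered on the annotated start, the letters CTTTCC, a pyrimidine run like that of TOP mRNAs, or their reverse complement, were present in 32.9% of the 76 entries and in 8.97% of all 32851 promoters of the same length. On the strand of the gene alone, where a TOP tract lies, CTTTCC was present in 30.3% and in 4.69%. The letters CCGGAAG, a core bound by ETS factors, or their reverse complement, were present in 18.4% and in 5.21%. These 2 searches can share end letters of a match. A match is a description of the letters and not a site in use. The 30 bases around the start are shown, 5′ to 3′ on the strand of the gene, for the 3 called large-subunit members, with CTTTCC in capitals. They lie at chr7:4792950-4792979 on the plus strand for *Rpl28*, chr11:114668565-114668594 on the plus strand for *Rpl38* and chr11:97782425-97782454 on the minus strand for *Rpl23*.
Rpl28: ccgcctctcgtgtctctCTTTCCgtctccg
Rpl38: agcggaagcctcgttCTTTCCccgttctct
Rpl23: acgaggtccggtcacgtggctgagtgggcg
The letters CTTTCC thus stood at the start of *Rpl28* and *Rpl38*, whereas the window of *Rpl23* did not hold them.

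A pair of ribosomal proteins whose symbols the choice misses stood at like levels in both groups. *Fau*, which encodes eS30 fused to a ubiquitin-like protein, had 536, 544 and 498 tags in the IL-11- libraries, against 468, 446 and 501 tags in the IL-11+ libraries (log2 fold change −0.01 ± 0.16, SE). *Rack1*, a scaffold on the small subunit, had 875, 921 and 980 against 828, 732 and 785 tags (−0.08 ± 0.16). The groups overlapped in normalized CPM in both genes.

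Factors that work with the ribosome were compared in the same fit by the quasi-likelihood test of edgeR with Benjamini-Hochberg adjustment. In this fit 6.84% of all tested genes were called higher and 8.7% lower, and 9.33% and 11.2% with the block. At an unadjusted p under 0.05 the shares were 12.2% and 14.5%. Of 11 tested elongation and termination factors, *Eef2k*, the kinase that slows the factor eEF2, was lower in IL-11+ fibroblasts. It had 14, 23 and 20 against 7, 8 and 6 tags. With the block *Eef1d* was lower as well, but not with the GC and length offset added (adjusted p = 0.074, the same edgeR test). Without the block, *Eef1d* passed with library size only and with 10 tags required in all libraries. The call of *Eef2k* was lost without IL-11+ replicate 1, 2 or 3 (adjusted p of 0.062 to 0.098, the same edgeR test), and without any IL-11- library it failed the filter. It was also lost by DESeq2 and with the GC and length offset, alone or with the block. Of 40 initiation factors, *Eif4a2*, a helicase, was lower, with 366, 408 and 395 against 206, 236 and 236 tags, and *Eif4g3* and *Eif5b* were higher with the block. *Eif4a2* lost its call without IL-11- replicate 2 (adjusted p = 0.064, edgeR quasi-likelihood test, Benjamini-Hochberg adjustment). Of 23 tested genes with a TOP tract outside the members, 0 were called, 2 had an unadjusted p under 0.05 on the lower side, and *Eef1d* and *Snhg1* were lower with the block. The most abundant of them, *Eef1a1*, had 7496, 7170 and 7883 against 6782, 5736 and 5878 tags, with overlap in normalized CPM. *Eef1d*, *Eif4g3*, *Eif5b*, *Snhg1* and *Sesn1* are named after their values were seen.

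Of 17 tested genes around mTORC1, *Ddit4*, an inhibitor of the complex, was higher in IL-11+ fibroblasts, with 184, 144 and 72 against 270, 234 and 233 tags and no overlap. Its log2 fold change was 1.02 ± 0.26 (SE, adjusted p = 0.011, edgeR quasi-likelihood test, Benjamini-Hochberg adjustment). *Sesn1* was lower with the block, but without IL-11- replicate 1 its log2 fold change went from −1.22 to −0.27 in the fit without a block. Of 77 tested proteins of the mitochondrial ribosome, 2 were higher, *Mrpl52* and *Mrps33*, and 0 were lower. At an unadjusted p under 0.05 by edgeR, 5 were higher and 1 was lower. Next to this list and that around mTORC1, 6.84% of all tested genes were called higher and 8.7% lower. The shares were 12.2% and 14.5% at an unadjusted p under 0.05, and 9.33% and 11.2% called with the block. *Mrpl52* lost its call without IL-11- replicate 3 (adjusted p = 0.053, the same edgeR test), and *Mrps33* without IL-11- replicate 2 or 3 or IL-11+ replicate 2 or 3 (0.051 to 0.14) and by DESeq2. The median log2 fold change of these 77 genes was 0.11.

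Markers of other cell types differed between the groups. Among all tested genes, 8.7% were called lower and 6.84% higher by the edgeR test without a block. All 8 smooth muscle markers were lower in IL-11+ fibroblasts by the quasi-likelihood test of edgeR with Benjamini-Hochberg adjustment, with 2767, 3475 and 4984 tags in sum against 99, 174 and 367 tags. *Myh11*, the most abundant, had 850, 943 and 1332 against 18, 18 and 84 tags. Of 7 pericyte markers, 4 were lower and 2 higher, with 2808, 2429 and 2564 against 1015, 889 and 842 tags in sum, led by *Rgs5* with 1951, 1700 and 1800 against 186, 174 and 206 tags. The higher calls, *Kcnj8* and *Abcc9*, held in 2 and 3 of the 6 edgeR fits without 1 library (adjusted p up to 0.19 and 0.091 by the quasi-likelihood test), and *Kcnj8* overlapped between the groups. The glia marker *Gfap* was lower, with 22, 23 and 26 against 1, 0 and 1 tags. The defining glia markers *Sox10* and *S100b* were at 0 in all 3 IL-11+ libraries. The part of these cells in the values of ribosomal protein genes was not tested.

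Markers of the cells that the sort removed were scarce. Of 10 leukocyte markers 1 was tested and lower, *Cd74*, and *Ptprc* had 1, 2 and 7 against 0, 3 and 0 tags. The lists held 35, 48 and 37 against 41, 23 and 28 tags for leukocytes, and 44, 35 and 56 against 17, 11 and 9 tags for endothelium, with *Tek* as the most abundant and called gene and *Pecam1* at 0 in 5 of 6 libraries. Epithelial markers held 35, 28 and 68 against 7, 12 and 23 tags, led by *Lgals4*, which was called lower, with *Epcam* at 0 in 4 of 6 libraries. Red cell markers held 95, 0 and 372 against 17, 2 and 20 tags, led by *Hbb-bs*, and none was tested. In edgeR fits without 1 library, *Cd74* kept its call in 2 of 6, *Tek* in 5 of 6 and *Lgals4* in 3 of 6, with adjusted p up to 0.24, 0.051 and 0.074 by the quasi-likelihood test. *Cd74* was also not called by DESeq2 or with the GC and length offset.

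Other marks of the libraries differed between groups too. Mitochondrially encoded genes took 8.94%, 9.45% and 7.31% of tags in IL-11- fibroblasts, and 5.04%, 4.67% and 4.43% in IL-11+ fibroblasts, and ribosomal RNA symbols took 5.64%, 5.74% and 6.47% against 7.10%, 6.80% and 6.64%. A list of 14 genes that tissue dissociation can raise held immediate early genes and the heat shock genes *Hspa1a* and *Hspa1b*. Of these 14, 9 were lower and 1 was higher in IL-11+ fibroblasts by the quasi-likelihood test of edgeR with Benjamini-Hochberg adjustment. The same test called 8.7% of all tested genes lower and 6.84% higher. The 14 genes had 31565, 32929 and 28730 against 16375, 18610 and 18109 tags in sum. *Egr1*, the most abundant, had 6304, 6178 and 5116 against 3276, 3817 and 3855 tags. It was called lower with the block, as well as without IL-11- replicate 3, by DESeq2 and with library size only. In the main edgeR fit, with TMM, all libraries and no block, it was not called. *Ier3* was the gene that was higher. Of 4 tested ribosomal RNA symbols 0 were called by edgeR, and 0 had an unadjusted p under 0.05. All of these groups were apart between IL-11- and IL-11+ libraries, as was the small-subunit share of tags. With ribosomal RNA and mitochondrial genes left out of the totals, the ratio of the small-subunit shares was 0.854 instead of 0.883, and that of the large-subunit shares 0.932 instead of 0.965. The part of the immediate early and heat shock genes in these shares was not tested.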

How the data were processed

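The values are the authors' tag counts per gene symbol, not normalized (Cutadapt 1.18, then Bowtie2 2.2.5 against mouse RefSeq RNA on a single strand). Members and gene lists were chosen with earlier results of these data known. Genes reaching 10 tags in 3 or more of 6 libraries were tested in R 4.3.3 with edgeR 4.0.16 (TMM, glmQLFit and glmQLFTest, Benjamini-Hochberg over 9334 genes), a fit that was tested on simulated data. P-values measure the spread between these libraries.

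Same-numbered libraries of both groups deviated together from their group means (r = 0.23, 0.19 and 0.27 over 4982 genes averaging 30 tags or more), and the study's methods name 3 mice, so the replicate number was used as a block in an alternative fit. Depth of 1022851 to 1169817 tags set a floor of 2.56 to 2.93 CPM (3 tags), which covers counting error only.

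Positions, lengths and GC content came from GENCODE mouse release 21 (GRCm38), where all 85 members and 85.0% of symbols were found. By 50-nt windows in the first 300 nt, 31 members share sequence with a gene in the count tables and 70 with any annotated gene, so their tags can be split between copies. Promoters came from RefSeq (GRCm38.p6).

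Members named in the text are, per subunit, up to 5 with the smallest p in each direction among those with an adjusted p under 0.05, the 3 most abundant, that nearest to 0, every paralog, every member under the filter, *Rps6*, the P-stalk and 5S members, *Fau* and *Rack1*. Some genes are not reported here. Other lists are shown by up to 3 called genes in each direction and the most abundant gene, with *Il11* as a check of labels.

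Alternatives were RLE, library size only, iterative TMM, TMM without the members, DESeq2 1.42.0, other filters, the replicate block, thinned counts, each library left out, a GC and length offset, alone or with the block, leaving out ribosomal RNA and mitochondrial genes, and members without shared sequence.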

Additional observations from a re-analysis of the deposited data

How the results depend on the processing

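Large-subunit members higher in IL-11+ fibroblasts by over 2-fold at an adjusted p under 0.05 numbered 1, against 0 among members sharing no 5′ sequence with any annotated gene or with a gene in the count tables (the latter set chosen after seeing the data), and 0 to 1 without 1 library. Large-subunit members higher at an adjusted p under 0.05 numbered 3, against 1 with library size only, 0 and 1 among members without shared sequence of either kind, and 1 to 3 without 1 library. Large-subunit members lower numbered 0, against 1 with library size only and 2 with the GC and length offset with the block. Small-subunit members higher numbered 0, against 2 when every gene with at least 1 tag was kept and 1 with the GC and length offset with the block. Small-subunit members lower numbered 1, against 0 when every gene with at least 1 tag was kept and 0 to 1 without 1 library. *Rpl28* lies outside both sets without shared sequence. The cause of these changes was not tested.

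The replicate block gave 6 large-subunit members higher and 1 lower, and 2 small-subunit members higher, at an adjusted p under 0.05. It changed no other call of a member named in the text, and median log2 fold changes were 0.00 and −0.09 with it.

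Over the alternatives, the median log2 fold change ran from −0.08 to 0.12 in the large and from −0.18 to −0.04 in the small subunit. Without 1 library, the ratio of the shares of tags was 0.935 to 0.994 and 0.850 to 0.911. Of the values for named members, *Rpl23* lost its call in 8 alternatives and *Rpl38* in 6, and 16 gained one (7 genes), all in the same direction, and 0 reversed. The large-to-small ratio of 1.09 was 1.07 without *Rpl28*, 1.05 without called members and 1.15 and 1.08 for members without shared sequence. For 3 of the 82 tested members, the approximate 95% interval of the fold change passed 2-fold.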
